A study of Homo sapiens with 16 samples.

Results

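The region of 5 to 30 kb downstream of the transcription start site (TSS) was examined in averaged nascent RNA profiles of long human genes. It was defined by distance from the TSS and comprised 25000 of the 122001 base pair positions in each of 16 profiles. DRB/GRO-seq was performed in RECQL5-shutoff HEK293T-Rex cells, derived from human embryonic kidney and equipped with a tetracycline repressor. All cells carried an shRNA against endogenous RECQL5 together with a RECQL5 copy that escapes this shRNA and is switched on by doxycycline. In wild-type (WT) samples doxycycline kept this copy expressed, and in knockdown (KD) samples doxycycline was left out for 4 days. Each of clones 15 and 18, which are populations grown from single colonies, gave a WT sample and a KD sample after 0, 10, 25, and 40 min of release from DRB, so n = 2 clones for each of 8 conditions. The samples of a clone share their origin, and p-values measure the spread between these samples. Tests between times pool WT and KD, so their spread includes the difference between genotypes. They count WT and KD of a clone as separate units, also when paired. The labels give the DRB dose as 100 mM and the study's methods give the same figure in μM. The profiles are averages over genes and hold no value for RECQL5, so its depletion was not checked here. For the same reason no sequence of a single gene is shown.

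DRB inhibits P-TEFb, the kinase that allows RNA polymerase II (RNAPII) to pass from the start of a gene into productive elongation. Polymerases already elongating run off the gene during the block, and on removal of the drug a synchronized wave of polymerases enters the gene body. The gene body is thus first emptied, then filled as the wave arrives, and then crossed by polymerases that started later. In GRO-seq, engaged polymerases extend their RNA by a short stretch in isolated nuclei, so that read depth at a position is meant to reflect polymerases engaged there. RECQL5 is a DNA helicase of the RecQ family that binds RNAPII and is known as a general elongation factor.

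The signal in each profile is the mean normalized read depth (coverage), which the authors scaled to 20000000 reads in each library and averaged over genes of at least 30 kb. Every value was a whole multiple of the weight of 1 read, from which the libraries held 19452343 to 36399377 reads. The averaged profiles held 1006601 to 5509601 reads between 5 and 30 kb. These leave out the genes with the highest and lowest depth at each position, which the authors trimmed from the mean. Counting error of the mean depth there was at most 0.0997%, below the spread between clones. This covers counting alone and treats reads copied from 1 molecule as independent. KD of clone 15 stood apart at the early times, with a depth over the first 1 kb of 3.49 at 0 min and 4.48 at 10 min, against 17.7 to 31.3 and 20.3 to 29.0 in the other samples. The main averaged changes that rest on these libraries are also given without this series, and the main ratios of KD to WT for each clone. Values under another scaling or after subtraction of the 0 min profile are not given without this series. By 25 min KD of clone 15 no longer stood apart, and between 5 and 30 kb its mean depth was 3.89 against 3.87 in KD of clone 18. These samples still differed beyond counting error (chi-square per degree of freedom of 9.84 over 25 bins of 1 kb), so they were kept as separate samples. In bulk nuclei, fewer transcribing cells and fewer polymerases per cell cannot be told apart.

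Depth along the region was level, as in a plateau, at 40 min only. The mean depth was low at 0 and 10 min, highest at 25 min in every series, and lower again at 40 min. From the near to the far end, depth sloped gently upward at 0 min and steeply downward at 25 min.

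**Figure D1:**
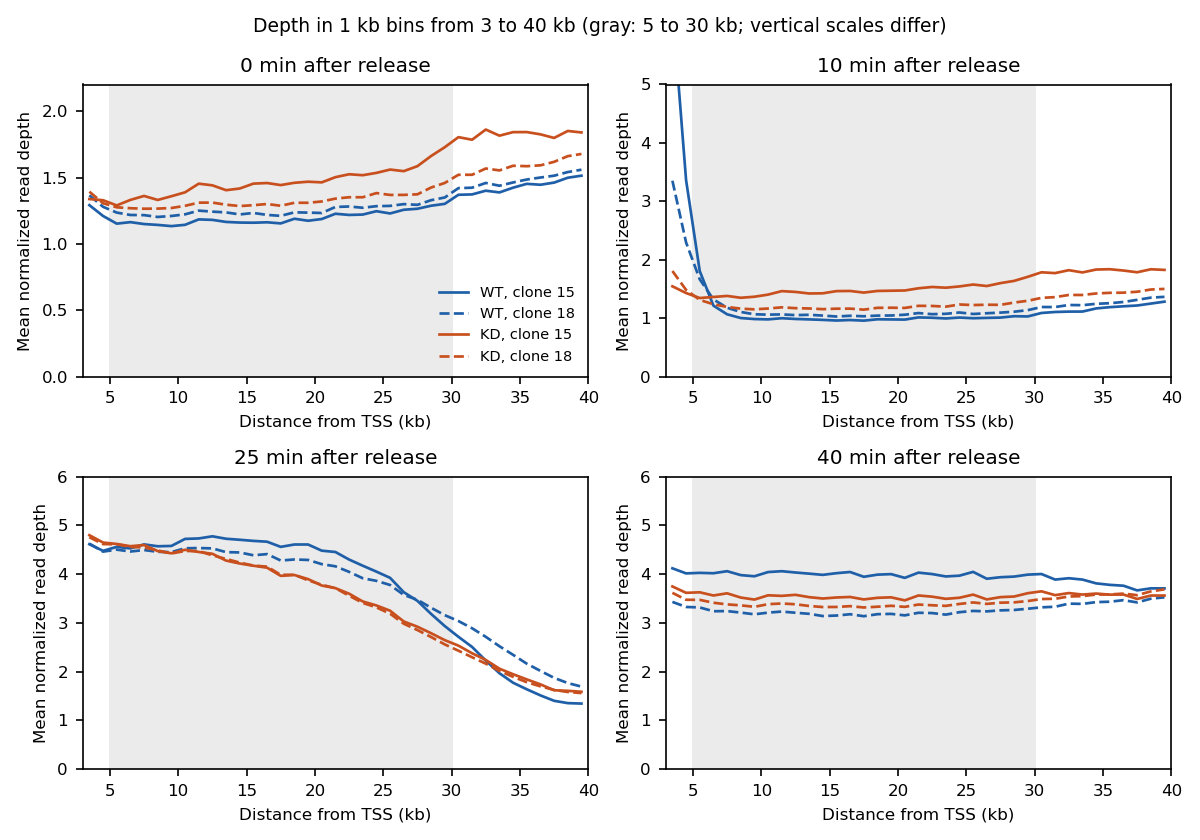
Mean normalized read depth in 1 kb bins from 3 to 40 kb downstream of the TSS at each time after release, with WT in blue, KD in orange, clone 15 as solid and clone 18 as dashed lines, and 5 to 30 kb shaded. At 10 min the curves are cut off above 5. At 25 min depth sloped downward along the region in all 4 samples, and at 40 min it was level.

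At 0 min, before release, the region had a mean depth of 1.19 and 1.25 in WT of clones 15 and 18, respectively, and of 1.47 and 1.32 in KD. Both KD samples lay above both WT samples. The region was shallower than the windows farther downstream, where some of the averaged genes have already ended. The region had 0.769 and 0.784 times the depth of 30 to 60 kb in WT of clones 15 and 18, and 0.801 and 0.783 times in KD. Relative to 100 to 120 kb, the ratios were 0.757 and 0.761 in WT and 0.879 and 0.776 in KD. Depth sloped upward along the region in each sample. The slope, given as percent of the region's own mean per 10 kb, was 4.88 and 3.57 in WT and 8.95 and 4.74 in KD of clones 15 and 18. The mean slope was 5.54 ± 2.35 (SD, n = 4), positive in 4 of 4 samples (two-sided exact sign-flip permutation test, p = 0.125, the lowest attainable). Without KD of clone 15 it was 4.40.

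The upward slope at 0 min ran parallel to the content of exons, the parts kept in stable mRNA. GENCODE release 44 on GRCh37 (hg19), which is not the annotation of the authors, lists 8888 protein-coding genes of 30 kb or more. In these, exonic bases made up 1.40% of gene sequence at 5 to 10 kb, 1.63% at 10 to 15 kb, 1.88% at 15 to 20 kb, 2.44% at 20 to 25 kb, and 3.85% at 25 to 30 kb. All of these genes run through the whole of the region, since the list requires 30 kb, while at 30 to 60 kb a mean of 77.6% still run. The share of exons reached 5.34% in the last 1 kb. GC content lay between 42.4% and 42.5% in each 5 kb bin. Across the 25 bins of 1 kb, depth at 0 min and exon share had a Pearson r of 0.938 and 0.930 in WT and 0.941 and 0.958 in KD of clones 15 and 18. With GC content, r was 0.646 and 0.735 in WT and 0.606 and 0.700 in KD. The bins come from the same libraries and both quantities change steadily with distance, so r is given as a description. At 25 min, when depth was lower farther from the TSS, r lay between −0.971 and −0.940. A start of another protein-coding gene lay between 5 and 30 kb in 4.19% of the genes (372 of 8888). The study reports that its samples held a low level of stable mRNAs, and it left exons out when locating the front of the wave. The part of exons or GC content in the depth at 0 min was not tested.

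**Figure D2:**
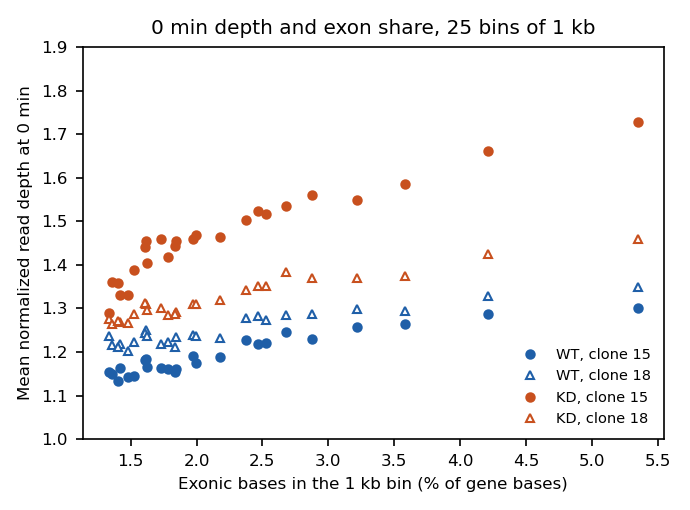
Mean normalized read depth at 0 min in each of the 25 bins of 1 kb between 5 and 30 kb (vertical axis, starting at 1) against the percentage of exonic bases in that bin among 8888 long genes (horizontal axis), with 1 point for each bin and sample. Depth tended to be higher in the bins with more exonic sequence in each of the 4 samples, and was highest in the bin with 5.34% exons.

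At 10 min depth was well above the 0 min level only at the near edge of the region and only in WT. In the bin of 5 to 6 kb, depth in WT was 1.81 for clone 15 and 1.67 for clone 18, against 1.15 and 1.24 at 0 min. In KD it was 1.35 and 1.32 at 10 min, against 1.29 and 1.28 at 0 min. At 6 to 7 kb WT was still above its 0 min level, at 1.22 and 1.32 against 1.16 and 1.22, and from 7 kb on it lay below that level in both clones. At 10 to 15 kb the depth of WT went from 1.17 to 0.986 in clone 15 and from 1.24 to 1.06 in clone 18. At 25 to 30 kb, they went from 1.27 to 1.02 and from 1.31 to 1.10. KD changed less. KD of clone 18 went from 1.3 to 1.17 at 10 to 15 kb and from 1.40 to 1.25 at 25 to 30 kb. KD of clone 15 stayed at 1.42 and 1.44 in the former bin and at 1.62 at both times in the latter. Over 5 to 30 kb the log2 change in KD exceeded that in WT by 0.21 in clone 15 and 0.04 in clone 18 (two-sided exact permutation test, p = 0.33, the lowest for 2 samples against 2).

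As log2 changes from 0 to 10 min, the 4 bins from 10 to 30 kb lay between −0.32 and −0.24 in WT of clone 15, between −0.25 and −0.22 in WT of clone 18, and between −0.16 and −0.15 in KD of clone 18, while in KD of clone 15 they were at most 0.01. Over 5 to 30 kb the mean log2 change was −0.12 (SD 0.09, n = 4 series), lower in 3 of 4 series (two-sided exact permutation test of 4 samples against 4, p = 0.371). Without KD of clone 15 it was −0.17, with −0.20 to −0.24 in the 4 bins from 10 to 30 kb, and scaled to the depth at 100 to 120 kb it was −0.07. In WT, both samples at 10 min lay below both at 0 min in 22 of 25 bins of 1 kb, all from 8 kb on. The same held in 87.7% of the 122 bins from 2 kb upstream to 120 kb, so the lower depth was not particular to the region. Depth at 10 min was below 0 min in all 4 series in 3 of 25 bins, against 16.4% of all 122 bins. At 30 to 60 kb the log2 change was −0.18 and −0.17 in WT and 0.0028 and −0.14 in KD of clones 15 and 18, while at 1 to 5 kb depth was higher in 4 of 4 series, with log2 changes of 2.25 and 1.43 in WT and 0.44 and 0.54 in KD of clones 15 and 18. Since each library is scaled to the same total, reads gained near the TSS lower the depth elsewhere. Summed depth, the mean depth of a window times its length in kb, changed from 0 to 10 min by 15.4 ± 12.9 in the first 5 kb and by −2.52 ± 1.92 at 5 to 30 kb (SD, n = 4 series). Without KD of clone 15 these changes were 19.5 ± 12.1 and −3.47 ± 0.44 (SD, n = 3 series). The part of the scaling in the lower depth was not tested.

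At 25 min depth was raised over the whole region. The mean depth was 4.33 and 4.16 in WT and 3.89 and 3.87 in KD of clones 15 and 18, each above every sample at 10 min, where the values were 1.04, 1.11, 1.48, and 1.20 in the same order. The mean log2 change from 10 to 25 min was 1.76 (SD 0.29, n = 4 series), a 3.39-fold rise, positive in 4 of 4 series. It passed the threshold of 0.05 without pairing (two-sided exact permutation test, p = 0.029, the lowest that 4 samples against 4 can give). With the clone and genotype as a replicate block, p was 0.125, the lowest for 4 pairs (exact sign-flip permutation test). Adjusted by the Benjamini-Hochberg method over the 27 results compared, the exact permutation p was 0.257, as it was for the log2 change of 1.43 from 0 to 40 min, which was 0.72 when scaled to the summed depth over 0 to 120 kb. Without KD of clone 15 the changes were 1.88 and 1.48 (exact permutation, p = 0.1 for each, the lowest for 3 samples against 3). All 25 bins of 1 kb at 25 min lay above those at 10 min without overlap, compared with 67.2% of the 122 bins. The rise was not even along the region. The mean log2 change was 1.84 at 5 to 10 kb, 1.96 at 10 to 15 kb, 1.89 at 15 to 20 kb, 1.70 at 20 to 25 kb, and 1.36 at 25 to 30 kb, and without KD of clone 15 it was 1.87, 2.08, 2.03, 1.85, and 1.53 in the same order. At 25 to 30 kb it was 1.75 and 1.65 in WT and 0.86 and 1.19 in KD, without overlap.

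**Figure D3:**
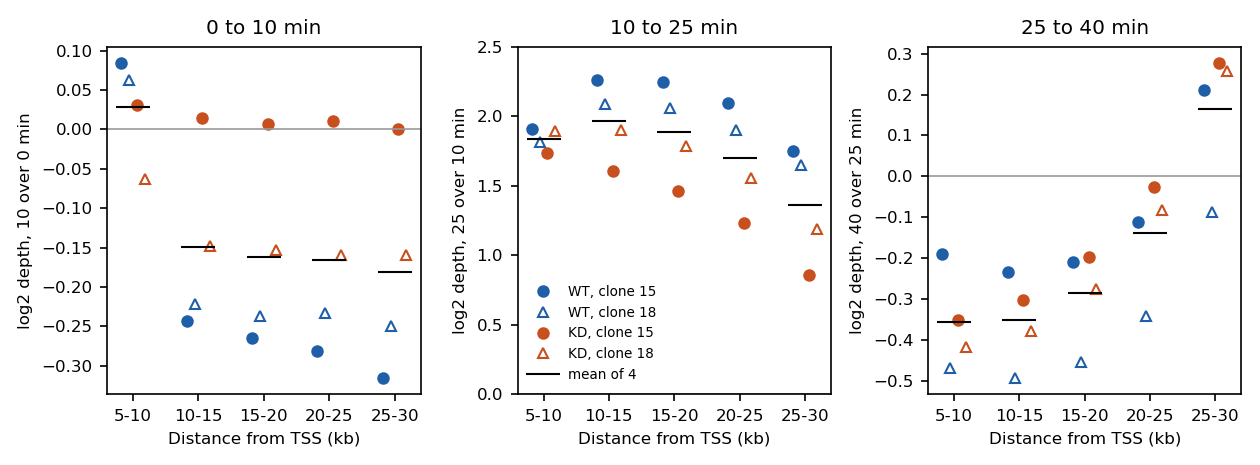
Log2 change in mean depth between successive times (vertical axes, which differ in scale) in the 5 bins of 5 kb (horizontal axis), with 1 point for each clone and genotype and a bar at the mean of 4. From 10 to 25 min every point is above 0, with means of 1.36 to 1.96, and from 25 to 40 min the points of the first 4 bins are below 0.

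The region was steeper at 25 min in KD than in WT. At 5 to 10 kb all 4 samples lay together, at 4.57 and 4.48 in WT and 4.54 and 4.53 in KD of clones 15 and 18. At 15 to 20 kb WT had 4.63 and 4.34 and KD had 4.03 and 4.04. At 25 to 30 kb WT had 3.43 and 3.46 and KD had 2.93 and 2.86. KD thus parted from WT with distance, and with the authors' scaling both KD samples lay below both WT samples in each bin from 10 kb on. In clones 15 and 18, the log2 ratio of KD over WT was −0.01 and 0.02 at 5 to 10 kb, −0.11 and −0.04 at 10 to 15 kb, −0.20 and −0.10 at 15 to 20 kb, −0.26 and −0.18 at 20 to 25 kb, and −0.23 and −0.28 at 25 to 30 kb. Scaled to the summed depth over 0 to 120 kb, the mean ratio at 5 to 10 kb was 0.068, with KD above WT without overlap. At 10 to 15 kb it was −0.012 with that scaling and −0.041 when scaled to the depth at 100 to 120 kb. WT and KD overlapped there under both scalings. The slope was −12.8 and −12.1% per 10 kb in WT and −20.8 and −21.6% in KD. KD minus WT was −7.98 in clone 15 and −9.48 in clone 18, a mean of −8.73 (SD 1.06, n = 2 clones). This is larger than the spread between clones, but 2 samples against 2 cannot give less than p = 0.33, the value found (two-sided exact permutation test).

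The 1 kb running mean was highest at 12.2 and 11.0 kb in WT and at 5 and 5.04 kb, the near edge of the region, in KD of clones 15 and 18. It first fell below 90% of this height at 22.3 and 22.0 kb in WT and at 15.5 and 15.8 kb in KD. These positions, a measure chosen after the profiles were seen and therefore not tested, did not overlap between WT and KD. KD lay below WT without overlap in 21 of 25 bins of 1 kb, from 9 kb to the end of the region, compared with 32.8% of the 122 bins. At 30 to 60 kb the log2 ratio of KD over WT at 25 min was 0.11 in clone 15 and −0.10 in clone 18, of opposite sign. Over the whole region the log2 ratio of KD over WT was −0.15 for clone 15 and −0.10 for clone 18, a mean of −0.13 (SD 0.04, n = 2 clones, two-sided exact permutation test, p = 0.33). With the 0 min profile of the same clone and genotype subtracted, the ratio was −0.37 in clone 15 and −0.19 in clone 18 (mean −0.28). The slope was then −19.5 and −18.8% per 10 kb in WT and −38.8 and −35.2% in KD of clones 15 and 18 (mean −28.1). KD minus WT in this slope was −19.3 and −16.4 (mean −17.8). Scaled to the summed depth over 0 to 120 kb, the ratio was −0.11 in clone 15 and −0.02 in clone 18 (mean −0.06). The 0 min depth that is subtracted was higher and rose more steeply in KD than in WT in both clones, and in KD of clone 15 most of all.

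**Figure D4:**
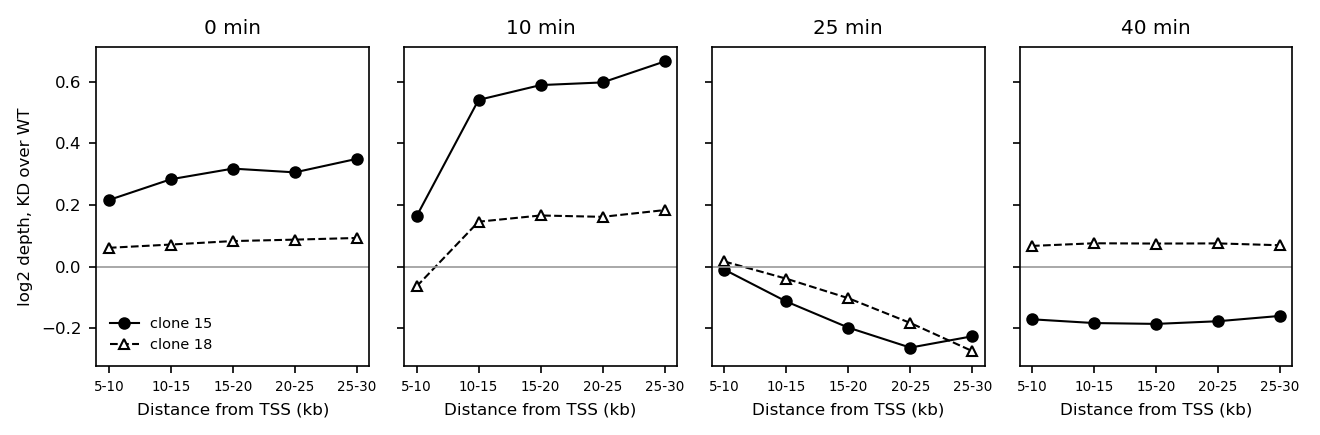
Log2 ratio of KD to WT mean depth (vertical axis) in the 5 bins of 5 kb (horizontal axis) at each time, with clone 15 as filled circles and clone 18 as open triangles. At 25 min the ratio went from near 0 at 5 to 10 kb to −0.23 and −0.28 at 25 to 30 kb, and at 40 min it was level along the region and of opposite sign in the clones.

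At 0 and 10 min KD lay above WT. At 0 min the log2 ratio over 5 to 30 kb was 0.30 in clone 15 and 0.08 in clone 18, and at 10 min 0.51 and 0.12 (two-sided exact permutation tests, p = 0.33 at each time). KD lay above WT without overlap in 25 of 25 bins of 1 kb at 0 min and in 23 of 25 at 10 min. This was also so in 91% and 85.2% of the 122 bins. In both clones KD had a lower depth than WT over the first 1 kb at these times, with log2 ratios of −3.16 and −0.55 at 0 min, and −2.61 and −0.52 at 10 min. The part of this in the higher depth of the region was not tested. The slope at 10 min was −8.31 and −6.25% per 10 kb in WT and 7.96 and 1.74% in KD of clones 15 and 18, of opposite sign in the genotypes (KD minus WT 12.1, two-sided exact permutation test, p = 0.33). This contrast in sign was lost within 10 to 25 kb, without the near edge, where the slopes were 1.80 and 2.01 in WT and 5.50 and 3.11 in KD, a difference of 2.40. It was also lost when the slope was the median of all pairwise slopes between the 1 kb means. All 4 slopes were then above 0 (0.37 and 0.557 in WT, 7.58 and 2.85 in KD, a difference of 4.75).

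From 25 to 40 min depth became lower in the near bins and, in 3 of 4 series, higher in the far one. At 5 to 10 kb, WT of clone 15 went from 4.57 to 4.01, WT of clone 18 from 4.48 to 3.24, KD of clone 15 from 4.54 to 3.56, and KD of clone 18 from 4.53 to 3.39. All 4 samples at 40 min lay below those at 25 min. At 25 to 30 kb, WT of clone 15 went from 3.43 to 3.97, KD of clone 15 from 2.93 to 3.55, and KD of clone 18 from 2.86 to 3.42. WT of clone 18 went the other way, from 3.46 to 3.26. The mean log2 change was −0.36 at 5 to 10 kb, −0.35 at 10 to 15 kb, and −0.28 at 15 to 20 kb, each negative in 4 of 4 series (two-sided exact permutation tests without pairing, p = 0.029 for each). With the clone and genotype as a replicate block, none passed (exact sign-flip permutation tests, p = 0.125 for each, the lowest for 4 pairs). Scaled to the depth at 100 to 120 kb, the mean change at 15 to 20 kb was −0.24 and no longer passed (exact permutation, p = 0.114). The mean was −0.14 at 20 to 25 kb (p = 0.143, exact permutation) and 0.17 at 25 to 30 kb (p = 0.2, exact permutation). Scaled to the summed depth over 0 to 120 kb, these were −0.38 (exact permutation, p = 0.029) and −0.075. Over the 15 comparisons of 5 bins and 3 time steps, the lowest p after Benjamini-Hochberg adjustment of these exact permutation tests was 0.0536, so that no single bin passed the threshold after adjustment. Depth at 40 min was below 25 min without overlap in 13 of 25 bins of 1 kb, those from 5 to 18 kb, compared with 13.9% of the 122 bins.

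Over the whole region the mean log2 change from 25 to 40 min was −0.21 (SD 0.12, n = 4 series), with −0.12 and −0.37 in WT and −0.14 and −0.20 in KD of clones 15 and 18. It was negative in 4 of 4 series and did not pass the threshold (two-sided exact permutation test, p = 0.0857), and WT of clone 15 at 40 min, at 4.00, lay above both KD samples at 25 min. Scaled to the summed depth over 0 to 120 kb, it was −0.45 and passed (exact permutation test, p = 0.029), and with medians it was −0.26 and passed likewise. Scaled to the depth at 100 to 120 kb, it was −0.16 and did not, nor did it after subtraction of the 0 min profile, at −0.32. These tests were without pairing, and an exact sign-flip permutation test on 4 pairs cannot give p under 0.125. The difference between KD and WT in the change from 25 to 40 min was smaller than the spread between clones, with −0.02 in clone 15 and 0.18 in clone 18 (two-sided exact permutation test, p = 1).

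The region also became level. The slope at 40 min was −0.752 and 0.178% per 10 kb in WT and −0.361 and 0.214% in KD of clones 15 and 18, a mean of −0.18 ± 0.463 (SD, n = 4), and the highest 1 kb running mean was only 1.04 to 1.06 times the lowest. With the 0 min profile subtracted, the slope at 40 min was downward in all 4 samples, at −3.15 and −1.99 in WT and −6.96 and −2.71 in KD, a mean of −3.70 (exact sign-flip permutation test, p = 0.125). From 25 to 40 min the slope changed by 12.04 and 12.3 in WT and 20.4 and 21.8 in KD, a mean of 16.6% per 10 kb (SD 5.19, n = 4 series, two-sided exact permutation test, p = 0.029). With the series as a replicate block the p was 0.125 (exact sign-flip permutation test), and without the block it was 0.257 after adjustment over the 27 results. KD minus WT in slope at 40 min was 0.39 in clone 15 and 0.0366 in clone 18 (two-sided exact permutation test, p = 0.667).

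**Figure D5:**
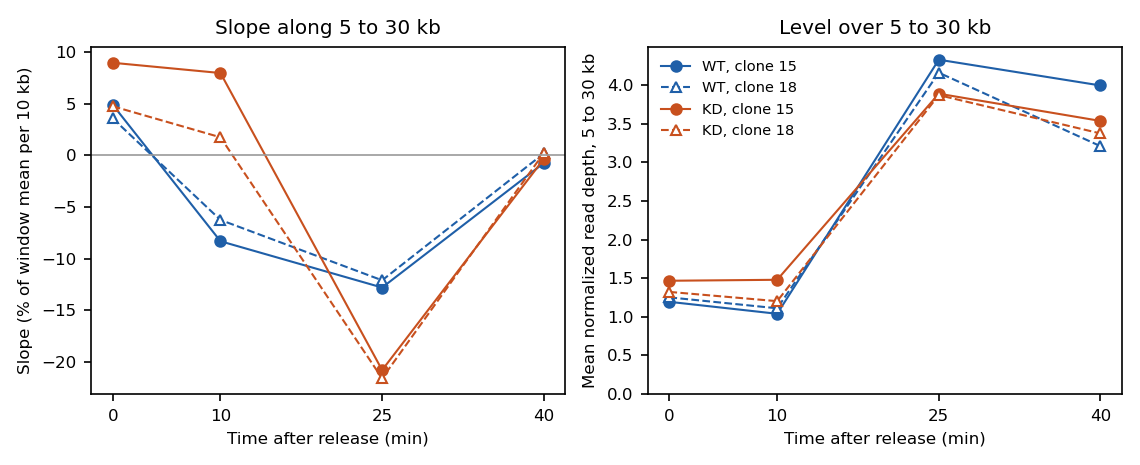
Slope of depth along 5 to 30 kb in percent of the region's mean per 10 kb (left) and mean normalized read depth of the region (right) against time after release, with 1 point for each of 16 samples and lines joining the samples of each clone and genotype. At 25 min the slopes were −12.8 and −12.1 in WT and −20.8 and −21.6 in KD, and at 40 min all 4 were within 1 of 0.

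The 40 min profile rose above the 25 min profile within the region in each series. This position lay at 24.9 kb in WT of clone 15, 28.8 kb in WT of clone 18, 22.8 kb in KD of clone 15, and 24.1 kb in KD of clone 18. The mean was 26.8 ± 2.77 kb in WT and 23.4 ± 0.861 kb in KD (SD, n = 2 clones). KD minus WT was −2.02 kb in clone 15 and −4.71 kb in clone 18 (mean −3.37 kb, two-sided exact permutation test, p = 0.33), and WT and KD did not overlap. Scaled to the summed depth over 0 to 120 kb, the difference was −1.75 kb (exact permutation, p = 0.667). Scaled to the depth at 100 to 120 kb, it was −2.35 kb (exact permutation, p = 0.667). WT and KD overlapped under both scalings.

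At 40 min the mean depth was highest in WT of clone 15, at 4.00, against 3.21 in WT of clone 18, 3.54 in KD of clone 15, and 3.38 in KD of clone 18. The KD to WT log2 ratio was −0.18 in clone 15 and 0.07 in clone 18, of opposite sign (mean −0.05, SD 0.18, two-sided exact permutation test, p = 1). Along the region the ratio was steady, from −0.19 to −0.16 in clone 15 and from 0.07 to 0.08 in clone 18 over the 5 bins. KD lay below WT without overlap in 0 of 25 bins of 1 kb, against 0% of the 122 bins, and above WT in 0 of 25, against 2.46%.

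The neighboring windows changed differently from 25 to 40 min. At 30 to 60 kb depth was higher in 4 of 4 series, with a mean log2 change of 1.0, and the change at 5 to 30 kb less that at 30 to 60 kb was −1.21 (SD 0.07, n = 4 series, two-sided exact sign-flip permutation test, p = 0.125, the lowest attainable). At 1 to 5 kb depth was lower in 4 of 4 series, with a mean log2 change of −0.36, and the change at 5 to 30 kb was higher by 0.16 (SD 0.05, n = 4 series, exact sign-flip permutation test, p = 0.125). With medians the latter difference was 0.07 and above 0 in 2 of 4 series (exact permutation, p = 0.5), within 10 to 25 kb it was 0.10, and after subtraction of the 0 min profile it was 0.43. In summed depth, 5 to 30 kb gained 71.4 ± 9.80 from 10 to 25 min and then changed by −13.3 ± 7.20 from 25 to 40 min (SD, n = 4 series). The window of 30 to 120 kb changed by 21.4 ± 12.8 and then by 72.8 ± 8.11. The first 5 kb changed by −16.4 ± 24.2 and then by −6.30 ± 2.33. From 10 to 25 min the first 5 kb gained 13.5 in KD of clone 15 and changed by −42.8, −27.1, and −8.96 in the other series. Without KD of clone 15 the changes from 10 to 25 min were 75.1 ± 7.84 at 5 to 30 kb, 27.3 ± 5.97 at 30 to 120 kb, and −26.3 ± 17.0 in the first 5 kb (SD, n = 3 series). Between 25 and 40 min the region changed by −8.34 and −23.8 in WT and by −8.82 and −12.4 in KD of clones 15 and 18, against 64.99 to 84.1 at 30 to 120 kb.

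The share of summed depth from 0 to 120 kb that lay at 5 to 30 kb does not depend on the scaling of the libraries. At 0 min it was 14.0 and 14.5% in WT and 17.9 and 15.3% in KD of clones 15 and 18. At 10 min it was 11.2 and 12.6% in WT and 17.6 and 14.6% in KD. At 25 min it was 36.4 and 34.3% in WT and 33.9 and 33.8% in KD, and at 40 min it was 29.0 and 23.5% in WT and 25.5 and 23.8% in KD. The KD minus WT difference was 2.36 percentage points at 0 min and 4.19 at 10 min, then −1.56 at 25 min and −1.53 at 40 min (two-sided exact permutation tests, p = 0.33 at the first 3 times and p = 1 at 40 min). With the 0 min profile subtracted, at 25 min it was −20.2 in clone 15 and 7.25 in clone 18, of opposite sign. The mean was −6.50 (exact permutation, p = 0.667). At 40 min it was then −16.8 and −1.51 (mean −9.16, exact permutation, p = 0.33), and WT and KD did not overlap. The subtracted total over 0 to 120 kb includes changes near the TSS. From 0 to 40 min, summed depth in the first 5 kb rose in KD of clone 15 only. It changed by −20.5 and −14.4 in WT of clones 15 and 18 and by −6.02 in KD of clone 18. The part of this in the differences after subtraction was not tested. Without subtraction, at 0, 10, and 25 min both KD samples were on the same side of both WT samples, and at 40 min they lay between them.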

How the data were processed

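Single-end reads had been aligned by the authors to hg19 with BWA 0.5.9 (the processing notes also name CASAVA 1.8.2), without those on rRNA genes or in blacklisted regions, extended to 250 bp, and scaled to 20000000 reads in each library. The deposited signal (coverage) is a trimmed mean (0.01) of depth at each position over long genes. Scaling sets library totals equal, so gains in one part lower the rest. Averaging keeps no single genes, and whether 1 strand or both were counted is not given in the sources used here.

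Mean depth, least-squares slope over 25 means of 1 kb, and the position from which 40 min stayed above 25 min for 1 kb (1 kb running means) were computed over positions 5000 to 29999. Library sizes came from the step of the values and the number of genes that the study states, less those trimmed. The calculations were tested on 20 simulated profiles. Times were compared over 4 samples each and genotypes over 2 clones each by exact permutation tests on log2 depth. Same-numbered samples come from the same clone, so pairing is given by the labels. Their deviations over the 25 bins had r of 0.643, −0.52, −0.695, and 0.797 at 0, 10, 25, and 40 min. No gene is named. The region and the measures were chosen with earlier results of these data known. The labels name no sequencing batch. Alternatives were other scalings, medians, subtraction of the 0 min profile, the inner 10 to 25 kb, pairing, and leaving out samples. With medians, depth was the median of means of 100 bp, and slope was the median of all pairwise slopes between means of 1 kb. Versions were Python 3.11.15, numpy 2.4.6, pandas 2.3.3, matplotlib 3.10.9.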

Additional observations from a re-analysis of the deposited data

Results flagged for a closer look

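In 4 results the effect had opposite signs in groups that were set side by side. The log2 ratio of KD to WT over 5 to 30 kb at 40 min was −0.18 in clone 15 and 0.07 in clone 18, a difference of −0.25. The KD minus WT difference in the log2 change from 25 to 40 min was −0.02 in clone 15 and 0.18 in clone 18, a difference of −0.20. The KD minus WT share of summed depth at 40 min was −3.43 percentage points in clone 15 and 0.368 in clone 18, a difference of −3.80. With 1 pair for each clone, these differences between clones were not tested. The slope along the region at 10 min was −7.28% per 10 kb on average in WT and 4.85% in KD (n = 2 clones each). The difference of 12.1 had p = 0.33 (two-sided exact permutation test, the lowest for 2 samples against 2). The opposite signs were lost within 10 to 25 kb and with the median of pairwise slopes, where the slope was above 0 in 4 of 4 samples and the differences were 2.40 and 4.75. No sample lay apart from the other 3 at its time in mean depth, slope, or share by Dixon's criterion, in 12 groups of 4 where chance gives about 0.6.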

How the results depend on the processing

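Under the alternatives, the 27 main results gave 180 values that kept their direction and their side of the threshold, 8 of opposite sign, 12 that no longer passed, and 2 that newly passed. With the series as a replicate block, 3 results over the whole region no longer passed (exact sign-flip permutation test, p = 0.125). They were the log2 change from 10 to 25 min (1.76), that from 0 to 40 min (1.43), and the slope change from 25 to 40 min (16.6). Of the 35 results for 5 kb bins, 8 no longer passed under the block. Scaling ended the call at 15 to 20 kb from 25 to 40 min (−0.24, 100 to 120 kb) and gave one at 20 to 25 kb (−0.38, 0 to 120 kb). The 3 results over the whole region also no longer passed with samples left out, where fewer samples cannot give p under 0.05. In the order given above, their values then ranged from 1.73 to 1.88, 1.35 to 1.51, and 15.4 to 17.0. The log2 change from 25 to 40 min passed when scaled to 0 to 120 kb (−0.45) and with medians (−0.26). The mean slope at 10 min was 2.84 with the median of pairwise slopes and 3.11 within 10 to 25 kb. With the 0 min profile subtracted, KD minus WT in slope at 40 min was −2.26 and the KD to WT log2 ratio at 40 min −0.18. KD minus WT in the change from 25 to 40 min was −0.015 when scaled to 0 to 120 kb, and −0.021 to 0.18 with samples left out. Leaving out samples gave KD to WT log2 ratios at 40 min of −0.18 to 0.072, slopes at 40 min of −0.56 to 0.20, and share differences at 40 min of −3.43 to 0.37.

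Of the 5 kb bins, 25 to 30 kb changed by −0.075 from 25 to 40 min when scaled to 0 to 120 kb. At 5 to 10 kb the change from 0 to 10 min was −0.0016 with that scaling and −0.00070 to 0.058 with samples left out, and the KD to WT ratio at 10 min was −0.022 when scaled to 100 to 120 kb and −0.065 to 0.16 with samples left out. That ratio at 25 min was −0.010 to 0.016. Without 1 clone the ratios at 40 min were −0.17 or 0.067 at 5 to 10 kb, −0.18 or 0.076 at 10 to 15 kb, −0.19 or 0.075 at 15 to 20 kb, −0.18 or 0.075 at 20 to 25 kb, and −0.16 or 0.069 at 25 to 30 kb. The cause of these shifts was not tested. Subtraction of the 0 min profile gave no value at 30 to 60 kb, where KD of clone 15 at 25 min lay below it. Crossing the clones in the pairs, an alternative chosen after seeing the data, could not bring a result past the threshold, since 2 pairs give p of at least 0.5. Leaving KD of clone 15 out of the summed depths was also chosen after seeing the data. Comparisons of genotypes rest on 2 clones and could not reach p under 0.33, while counting error was at most 0.0997%.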
